A study of Mus musculus with 61 samples.

Results

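The B cell antigen receptor genes described here are 9 genes of the receptor complex, its signalling and the B cell surface, namely Cd79a, Cd79b, Ms4a1, Cr2, Fcmr, Blk, Btk, Bank1 and Blnk. They were chosen by gene symbol from the 18194 genes that the 45101 probe sets of the array named, and were read by 10 probe sets. Ms4a1 had 2 such probe sets and each other gene had 1. RNA of lacrimal and of salivary glands was profiled in male NOD mice, a strain that spontaneously develops autoimmune infiltrates of the exocrine glands. Mice received LTBR-Ig, a soluble lymphotoxin-beta receptor fused to mouse IgG1 that blocks signalling through that receptor, or MOPC-21, a mouse IgG1 control antibody, or nothing. Injections began at week 8, so that the glands taken at week 12 came after 4 weeks of LTBR-Ig or MOPC-21 and those taken at week 16 after 8 weeks. Untreated mice were sampled at weeks 8, 12, 14 and 16. Of the 61 arrays, 31 were of lacrimal glands and 30 of salivary glands, in 16 groups of 4 arrays, except for 3 arrays of untreated lacrimal glands at week 12 and 2 arrays of LTBR-Ig-treated salivary glands at week 12.

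The B cell receptor is a membrane immunoglobulin joined to the signalling chains CD79A and CD79B. When antigen binds, Src family kinases such as BLK phosphorylate the tails of these chains, and the signal passes through the kinases SYK and BTK and the adaptors BLNK and BANK1 to calcium release, protein kinase C and NF-kappaB. The paper describes dense leukocyte clusters, rich in B cells, in lacrimal tissue of male NOD mice. It reports similar infiltrates in patients with Sjögren's syndrome. In the mice T cells were present too, mostly scattered singly or in small groups. The paper also states that disease of the salivary glands is rare in males of this strain.

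Promoter windows of 6 of the 9 genes were available from RefSeq on build GRCm38.p6, each of 300 bases from 250 before to 50 after the start of the transcript used there. Cd79b, Ms4a1 and Blk had no entry. The windows of 4 genes are shown, since these genes take in a signalling chain, the largest fall after LTBR-Ig, and an adaptor each with and without signal in salivary glands. Sequence runs 5′ to 3′ on the strand of the gene, and capitals mark matches on either strand to an octamer motif, ATTTGCAT, an EBF1 core, CCCNNGGG, or a PU.1 core, GAGGAA, all motifs of transcription factors known from B cells.
Cd79a, chr7:24897247-24897546, plus strand: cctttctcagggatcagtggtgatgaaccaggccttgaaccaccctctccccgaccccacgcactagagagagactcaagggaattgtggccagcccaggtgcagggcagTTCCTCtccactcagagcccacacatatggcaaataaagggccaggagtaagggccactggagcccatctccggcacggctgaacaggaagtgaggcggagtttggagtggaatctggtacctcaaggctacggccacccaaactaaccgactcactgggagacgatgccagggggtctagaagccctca
Fcmr, chr1:130865527-130865826, plus strand: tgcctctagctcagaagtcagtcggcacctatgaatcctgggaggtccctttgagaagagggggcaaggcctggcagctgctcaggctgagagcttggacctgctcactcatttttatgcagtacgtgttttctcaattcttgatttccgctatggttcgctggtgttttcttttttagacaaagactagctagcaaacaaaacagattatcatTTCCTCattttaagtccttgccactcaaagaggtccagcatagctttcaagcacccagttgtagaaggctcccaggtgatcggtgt
Bank1, chr3:136326017-136326316, minus strand: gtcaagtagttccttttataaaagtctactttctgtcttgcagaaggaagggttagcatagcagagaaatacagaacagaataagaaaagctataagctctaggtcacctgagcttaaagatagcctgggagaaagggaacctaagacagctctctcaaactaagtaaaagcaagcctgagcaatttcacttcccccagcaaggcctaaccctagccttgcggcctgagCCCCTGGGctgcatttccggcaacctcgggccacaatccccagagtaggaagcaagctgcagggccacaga
Blnk, chr19:40994172-40994471, minus strand: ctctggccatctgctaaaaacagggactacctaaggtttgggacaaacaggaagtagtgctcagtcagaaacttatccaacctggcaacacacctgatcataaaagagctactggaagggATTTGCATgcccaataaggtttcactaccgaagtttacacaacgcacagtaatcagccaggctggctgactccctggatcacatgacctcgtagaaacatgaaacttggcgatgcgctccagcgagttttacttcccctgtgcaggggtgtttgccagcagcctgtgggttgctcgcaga

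The PU.1 core was found in 3 of the 6 windows, those of Cd79a, Fcmr and Btk, and in 28.3% of all 32851 promoter windows of the same length. An EBF1 core was present in the window of Bank1 and in 13.7% of all windows. The octamer was present in the window of Blnk, starting 130 bases before the transcript start, and in 1.74% of all windows. None of these motifs was found in the window of Cr2. The matches describe letters in a window, and binding of a factor was not measured.

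The tissue labels were checked against markers. Pax6, a transcription factor of the lacrimal gland, lay between log2 8.36 and 10.35 in lacrimal arrays and between 2.89 and 3.69 in salivary arrays. Amylase, encoded by Amy1, is a product of the parotid gland. In the 30 salivary arrays Amy1 lay between log2 4.58 and 14.88 with a median of 7.51, so that most of them were under 8. It exceeded a log2 value of 8 in 8 of the 31 lacrimal arrays. At week 16 these were LTBR-Ig replicates 3 and 4, at 15.08 and 12.22, and untreated replicates 1 and 2, at 14.39 and 15.31, while the 4 MOPC-21 arrays lay between 3.38 and 3.84. The effects of LTBR-Ig at week 16 on the 9 genes are therefore given with and without such arrays.

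All 9 genes rose in untreated lacrimal glands with age. Levels are log2 values, in which a difference of 1 is a fold of 2, and a value of 4 or less was treated as no signal. Cd79a, a signalling chain of the receptor, stood at 3.14, 3.32, 3.15 and 4.38 at week 8, at 7.32, 6.33 and 9.80 at week 12, at 8.83, 8.97, 8.37 and 8.98 at week 14 and at 8.81, 9.02, 9.60 and 9.92 at week 16. Btk, the Tec family kinase of the pathway, lay between 2.61 and 2.65 at week 8, at 2.75, 3.31 and 5.91 at week 12, between 4.37 and 6.02 at week 14 and at 5.44, 5.60, 5.90 and 6.43 at week 16. All week 16 arrays were above all week 8 arrays for both genes, and at week 12 replicate 4 was the highest array for all 9 genes.

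Between week 16 and week 8 the log2 differences ran from 3.22 for Btk to 6.78 for Fcmr, the receptor for the Fc part of IgM, and their adjusted p-values from 2.1e-09 to 4.1e-05 (limma, Benjamini-Hochberg over 20077 probe sets). Of these probe sets 12.1% were called higher, that is by a fold of 2 or more at an adjusted p under 0.05. The arrays of the 2 ages did not overlap for 9 of 9 genes, and in 23.8% of probe sets all week 16 arrays were higher. At week 8 only Blnk was above 4 in at least 2 arrays, and the other 8 genes entered the test through later groups, so that these counts describe the genes and do not stand as support.

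The counts against week 8 are a description at week 12 too, since 8 of the 9 genes entered the test only through later groups. Between week 12 and week 8, 8 of the 9 genes were called higher, with a log2 difference of 5.19 for Fcmr, 4.75 for Cd79b, 4.32 for Cd79a and 1.99 for Blk. The exception was Btk, with a difference of 1.36 (SE 0.61, adjusted p = 0.0837). For Cr2 and Btk 1 of the 3 arrays at week 12 was above 4. In that comparison 6.07% of probe sets were called higher. Between week 14 and week 12 the differences of all 9 genes were positive, from 0.79 to 1.53, and none was called, against 0.0398% of probe sets in either direction. At an unadjusted p under 0.05 in limma, 2 of the 9 passed, Blk and Btk. Without the high array of week 12, replicate 4, the calls between week 14 and week 12 numbered 6. That fit keeps only replicates 2 and 3 of week 12, which were lower for all 9 genes. No share of all probe sets called is given for it, so that the count describes and does not stand as support. Between week 16 and week 14 the differences were 0.34 to 0.55, with 0 genes called, 0 at an unadjusted p under 0.05 in limma, and 0% of probe sets called.

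**Figure D1:**
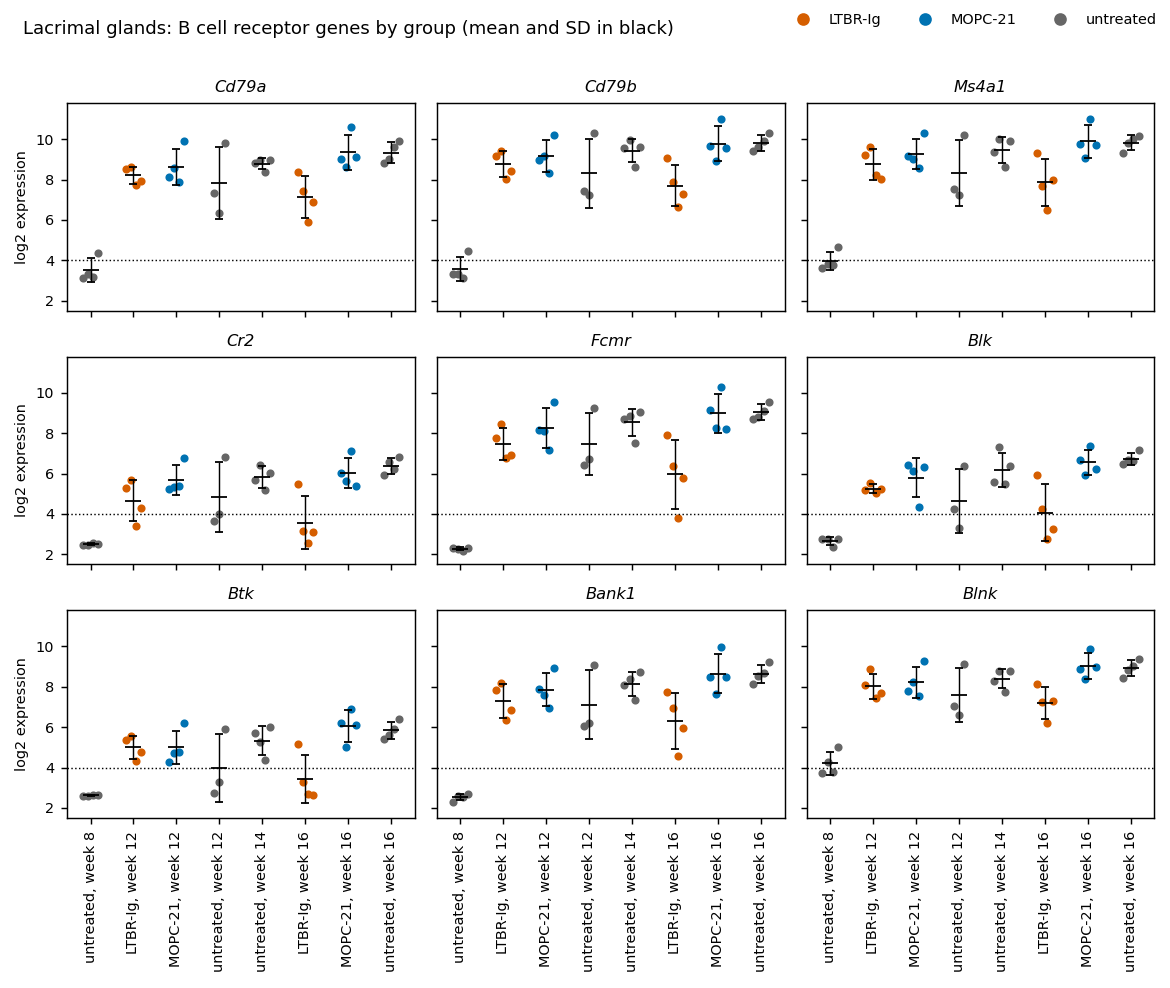
Log2 expression of the 9 genes in lacrimal glands (vertical axes) for each group (horizontal axes), with a point for each array, the mean and SD in black, and a dotted line at 4, the limit for signal. Untreated week 8 had the lowest mean and LTBR-Ig week 16 the next lowest for all 9 genes, and the LTBR-Ig week 16 points spread more widely than those of untreated mice of that age.

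At week 16 all 9 genes stood lower in LTBR-Ig-treated than in MOPC-21-treated lacrimal glands. The log2 change ran from −1.82 for Blnk to −3.02 for Fcmr with a median of −2.34, and 9 of 9 were called lower, where 5.54% of all probe sets were. Over all probe sets the median change was −0.05. In whole glands, fewer B cells and less of these RNAs per B cell cannot be told apart.

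Among the signalling chains, Cd79a stood at 8.36, 7.43, 5.90 and 6.88 in LTBR-Ig arrays, against 9.02, 8.62, 10.62 and 9.13 in MOPC-21 arrays. No array of the LTBR-Ig group reached the lowest MOPC-21 array. The mean was 7.14 ± 1.03 with LTBR-Ig and 9.35 ± 0.88 with MOPC-21 (SD, n = 4 each), a fall by 2.21 on the log2 scale (SE 0.57), which is 4.62-fold lower with an adjusted p of 0.0123 (limma). Its partner Cd79b stood at 9.06, 7.86, 6.63 and 7.26 in LTBR-Ig arrays, against 9.69, 8.90, 11.00 and 9.56 in MOPC-21 arrays. Here LTBR-Ig replicate 1 overlapped the MOPC-21 range, and the change was −2.08 (SE 0.57, adjusted p = 0.0152).

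Ms4a1 encodes CD20, a membrane protein of mature B cells. It stood at 9.34, 7.69, 6.50 and 7.98 in LTBR-Ig arrays, against 9.78, 9.09, 11.01 and 9.69 in MOPC-21 arrays, and the change was −2.02 (SE 0.56, adjusted p = 0.0169). The other probe set of Ms4a1 gave a change of −2.38 (SE 0.57, adjusted p = 0.0103), so that both probe sets of this gene were called lower.

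Fcmr had the largest change of the 9. It stood at 7.92, 6.36, 3.79 and 5.78 in LTBR-Ig arrays, against 9.15, 8.28, 10.27 and 8.22 in MOPC-21 arrays, without overlap. It was 8.09-fold lower, with a log2 change of −3.02 (SE 0.66, adjusted p = 0.00742). Cr2 encodes CD21, which binds complement fragments as part of the co-receptor on B cells and is also made by follicular dendritic cells. It stood at 5.48, 3.13, 2.58 and 3.09 in LTBR-Ig arrays, against 6.01, 5.64, 7.09 and 5.36 in MOPC-21 arrays, a change of −2.46 (SE 0.60, adjusted p = 0.0104). In 3 of the 4 LTBR-Ig arrays Cr2 was under the limit for signal.

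Both kinases were lower. Blk, a Src family kinase of the B lineage, stood at 5.95, 4.25, 2.77 and 3.27 in LTBR-Ig arrays, against 6.67, 5.94, 7.36 and 6.23 in MOPC-21 arrays, a change of −2.49 (SE 0.58, adjusted p = 0.00895). Btk stood at 5.17, 3.31, 2.67 and 2.65 in LTBR-Ig arrays, against 6.19, 5.04, 6.92 and 6.10 in MOPC-21 arrays, a change of −2.61 (SE 0.57, adjusted p = 0.00737). LTBR-Ig replicate 1 reached into the MOPC-21 range for both kinases, and the Btk values of replicates 3 and 4 were close to those of untreated glands at week 8.

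Of the adaptors, Bank1, an ankyrin repeat protein that binds kinases of the pathway, stood at 7.76, 6.95, 4.56 and 5.98 in LTBR-Ig arrays, against 8.51, 7.63, 9.97 and 8.51 in MOPC-21 arrays. The change was −2.34 (SE 0.62, adjusted p = 0.0134), with LTBR-Ig replicate 1 above the lowest MOPC-21 array. Blnk, the adaptor that brings BTK and phospholipase C together, stood at 8.15, 7.25, 6.20 and 7.28 in LTBR-Ig arrays, against 8.88, 8.39, 9.90 and 8.97 in MOPC-21 arrays. Its groups did not overlap, and its change was −1.82 (SE 0.47, adjusted p = 0.013), the smallest of the 9. In all, the arrays of the groups did not overlap for 3 of the 9 genes, Cd79a, Fcmr and Blnk, where 12.7% of probe sets had all LTBR-Ig arrays lower.

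Against untreated mice of the same age, 9 of 9 genes were again called lower with LTBR-Ig, where 3.77% of probe sets were, with log2 changes from −1.71 for Blnk to −3.09 for Fcmr and adjusted p-values from 0.0148 to 0.0337. All arrays of LTBR-Ig-treated glands were lower than all untreated arrays for 8 of 9 genes, the exception being Ms4a1, and this held for 14.2% of probe sets. The comparison shares its LTBR-Ig arrays with that against MOPC-21. MOPC-21 and untreated glands at week 16 differed by −0.35 for Cr2 to 0.22 for Btk, with SEs of 0.47 to 0.66, and 0 of 9 genes were called, against 0% of probe sets. None of the 9 passed an unadjusted p under 0.05 in limma.

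**Figure D2:**
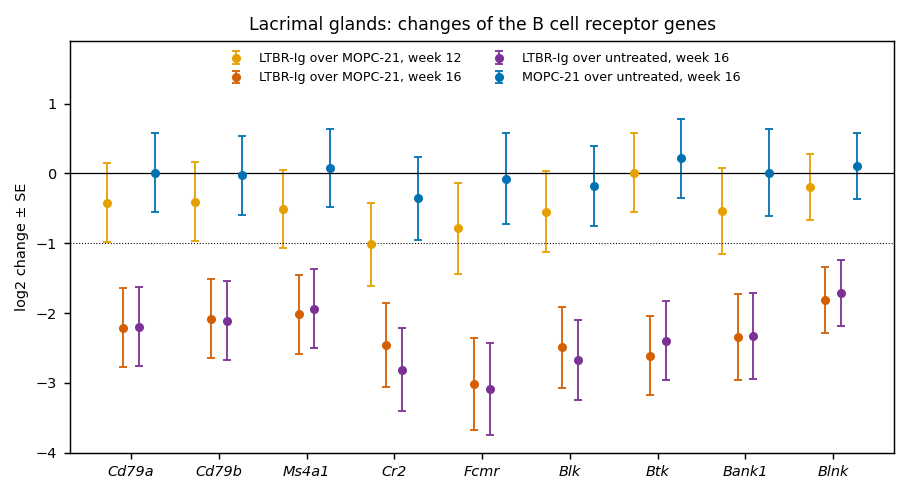
Log2 change ± SE (vertical axis) of each of the 9 genes (horizontal axis) in lacrimal glands for LTBR-Ig over MOPC-21 at weeks 12 and 16, LTBR-Ig over untreated at week 16 and MOPC-21 over untreated at week 16, with a dotted line at −1, a fold of 2 lower. The week 16 changes with LTBR-Ig lie between −1.71 and −3.09, and those of MOPC-21 over untreated between −0.35 and 0.22.

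The 9 genes moved together from array to array. LTBR-Ig replicate 1 was the highest of its group for 9 of 9 genes and replicate 3 the lowest for 8 of 9, with replicate 4 lowest for Btk. Set against the MOPC-21 mean, the median of the 9 genes was −0.89 in LTBR-Ig replicate 1, −2.21 in replicate 2, −3.45 in replicate 3 and −2.68 in replicate 4. Among MOPC-21 arrays replicate 3 was the highest for all 9, with a median of 1.12, and replicate 2 the lowest for 7. Untreated replicate 4 was the highest and replicate 1 the lowest for all 9 genes.

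**Figure D3:**
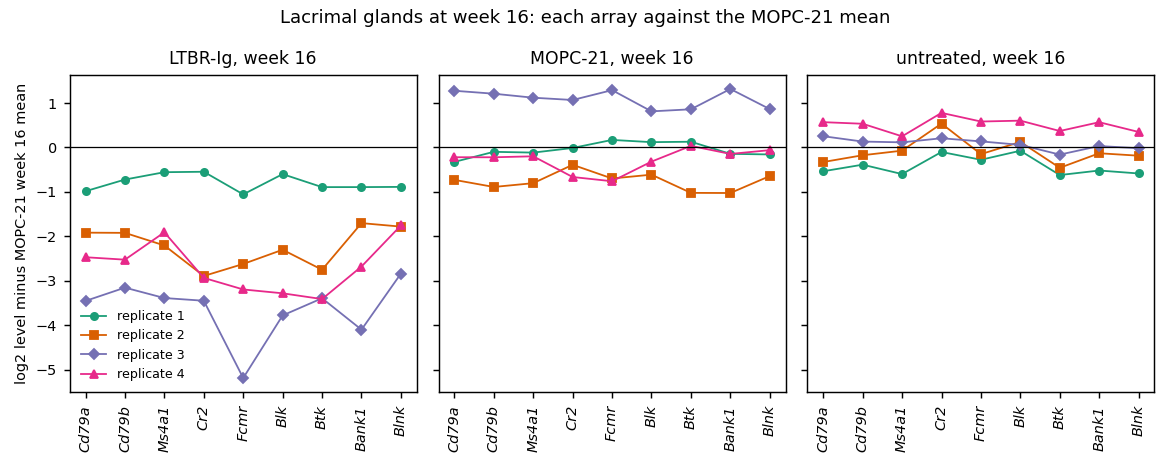
Log2 level of the 9 genes (horizontal axes) in each lacrimal array at week 16 minus the mean of the MOPC-21 arrays (vertical axis), for LTBR-Ig, MOPC-21 and untreated glands, with a line for each replicate. The LTBR-Ig replicates lie at medians of −0.89, −2.21, −3.45 and −2.68, and the genes of one array spread around them, from −3.41 for Btk to −1.76 for Blnk in LTBR-Ig replicate 4 and down to −5.19 for Fcmr in replicate 3.

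Over the 31 lacrimal arrays the Pearson correlations of the 36 pairs among the 9 genes ran from 0.88 to 0.99 with a median of 0.93. After the mean of each group was subtracted they were 0.72 to 0.97. The arrays share their glands and their infiltrate across genes, so that these values describe how much the genes went together. Outside the 9, the genes closest to their mean profile among 10112 compared were Fcrl1 (r = 0.993), an Fc receptor-like protein of B cells, and Tnfrsf13c (r = 0.993), the receptor for BAFF. Next came Mbnl1, Cnn2, Ets1, Hvcn1, Fcrla, Prkcb, Gimap8 and Rasa3, down to r = 0.990.

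LTBR-Ig replicates 3 and 4, the arrays with high Amy1, had the lowest medians over the 9 genes, although replicate 2 lay below replicate 4 for Ms4a1 and Blnk. Untreated replicates 1 and 2 of week 16, also high in Amy1, had the lowest medians of their group, at −0.52 and −0.15. At week 12 the order was mixed. High-Amy1 LTBR-Ig replicate 2 was the highest of its group for 9 of 9 genes, and high-Amy1 untreated replicate 2 the lowest for 4. Of 9 salivary gland markers, 7 were called higher with LTBR-Ig than with MOPC-21 in lacrimal glands at week 16, where 45 of 10121 genes were called higher, among them Mucl1 by 6.86, Crisp3 by 6.47, Dcpp1 by 6.23 and Prol1 by 4.76, and their mean log2 level was 8.23 to 11.88 in LTBR-Ig arrays, 4.07 to 6.59 in MOPC-21 arrays and 4.45 to 10.38 in untreated arrays. Against untreated mice 4 of the 9 markers were called higher, of 27 among 10121 genes. Amy1, at 4.85 against MOPC-21 (adjusted p = 0.195), and Bpifa2, at 5.81 (adjusted p = 0.148), were not called. Pax6 was 0.49 higher with LTBR-Ig and 5 epithelial markers were 0.13 to 0.50 higher, none by a fold of 2. With the high-Amy1 arrays left out of every lacrimal group, 2 LTBR-Ig arrays were left and the changes against MOPC-21 were −1.30 for Bank1 to −1.84 for Fcmr. Of the 9 genes 0 were called (adjusted p = 0.239 to 0.329), where 22 of 20077 probe sets were. Against untreated mice the changes were negative for all 9 genes, with a median of −1.78 and the lowest at −2.21 for Cr2. There 0 of 9 genes were called as well (adjusted p = 0.352 to 0.405), and 0 of 20077 probe sets. For MOPC-21 against untreated mice the changes were −0.10 to −0.49, with 0 of 9 genes and 0 of 20077 probe sets called. With so few calls over all probe sets, the lost calls are not particular to the 9 genes. Leaving these arrays out did not remove the other salivary gland markers. LTBR-Ig replicates 1 and 2, low in Amy1, had mean marker levels of 9.95 and 8.23, and 2 of 9 markers were still called higher than with MOPC-21, with a median change of 4.48. The part of salivary tissue in the change was not tested.

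The calls at week 16 against MOPC-21 also rested on single arrays and on the spread taken from all lacrimal groups. Without MOPC-21 replicate 3 no gene was called, with changes of −1.53 to −2.59 and adjusted p-values of 0.0555 to 0.107. Without LTBR-Ig replicate 3 there were 3 calls, Fcmr, Blk and Btk, with changes of the 9 genes of −1.48 to −2.35 and adjusted p-values of 0.0383 to 0.0861. With the arrays of those groups alone in the fit the adjusted p-values were 0.0548 to 0.0711, and fewer probe sets were called over the whole array too. Against untreated mice no gene was called without LTBR-Ig replicate 3 or without untreated replicate 4, 4 without untreated replicate 3 and 3 without LTBR-Ig replicate 4. For the fits with an array left out no share of all probe sets called is given, so that lost calls cannot be read as particular to the 9 genes. The log2 changes of the 9 genes against MOPC-21 were negative in each of the settings tried.

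The rest of the receptor pathway was lower in part against MOPC-21, where 559 of 10121 genes were called lower. Of 8 proximal kinases and adaptors tested, 3 were called lower with LTBR-Ig at week 16, the lipid kinase subunit Pik3cd by −1.89, the adaptor Lat2 by −1.64 and the kinase Syk by −1.52, with a median of −0.93 over the list. Fyn, Plcg2, Vav1, Pik3ap1 and Dapp1 were between −0.56 and −0.94 and were not called. Among 7 downstream genes, protein kinase C beta, Prkcb, at −2.12, and the exchange factor Rasgrp3, at −1.34, were called lower. Of 4 genes in the list of co-receptor partners only 2 were measured, Cd81 and Ifitm3, which many other cells also make. They had changes of −0.61 and −0.40 and were not called. Against untreated mice 3 of 8 proximal genes, 1 of 7 downstream genes and 0 of 2 co-receptor partners were called lower, of 377 among 10121 genes.

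In a list of inhibitory receptors, phosphatases and Fc receptor-like genes of B cells, 7 of 8 genes were called lower, with a median of −1.92. Fcrl1 changed by −2.63, the sialic acid-binding receptor Cd22 by −2.29, the IgG receptor Fcgr2b by −2.17 and Fcrla by −1.93, and Cd72 was the exception at −1.09 (adjusted p = 0.119). Over 10121 genes, 559 were called lower and 45 higher, with a median change of −0.03. Against untreated mice 7 of the 8 genes of this list were called lower too, with a median of −1.88, of 377 genes lower and 27 higher among 10121. Without the high-Amy1 arrays 0 genes of these lists, or of the leukocyte lists that follow, were called in either comparison. Calls were also rare over the whole array, with 22 of 20077 probe sets where MOPC-21 was the control and 0 where untreated mice were. The lost calls are therefore not particular to these lists. With MOPC-21 as the control, 8 of 8 genes of the inhibitory list still had negative changes, with a median of −1.26. So did 7 of 7 T cell, 4 of 5 plasma cell and 6 of 7 myeloid markers.

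Markers of other leukocytes were in part lower with LTBR-Ig than with MOPC-21 as well, where 559 of 10121 genes were called lower. A list of follicular dendritic cell markers is given beside them. All 4 pan-leukocyte markers were called lower, with a median change of −1.52, and their mean log2 level was 9.04 to 11.12 in LTBR-Ig arrays, 11.03 to 12.43 in MOPC-21 arrays and 11.14 to 11.92 in untreated arrays. Of 7 T cell markers tested 6 were called lower, Cd3d by −1.87, Lat by −1.76, Cd4 by −1.60 and Cd3g by −1.43 among them. The mean level over all 9 genes of that list, which include genes not tested for lack of signal, was 3.73 to 4.78 in LTBR-Ig arrays and 4.99 to 6.11 in MOPC-21 arrays. Of 5 plasma cell markers 3 were called lower, Irf4 by −1.98, Mzb1 by −1.92 and Jchain by −1.20, and of 7 myeloid markers 3, Lyz2 by −1.89, Itgax by −1.85 and Cd68 by −1.47. Of 3 follicular dendritic cell markers tested 1 was called lower, Cxcl13, the chemokine that draws B cells into follicles, at −2.48. The paper describes networks of these cells as rare in lacrimal glands and leaves the source of CXCL13 there open. Against untreated mice, where 377 of 10121 genes were called lower, the markers called lower were 1 of 4 pan-leukocyte, 4 of 7 T cell, 2 of 5 plasma cell, 3 of 7 myeloid and 1 of 3 follicular dendritic cell markers. Differences between these lists and the 9 genes were not tested.

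**Figure D4:**
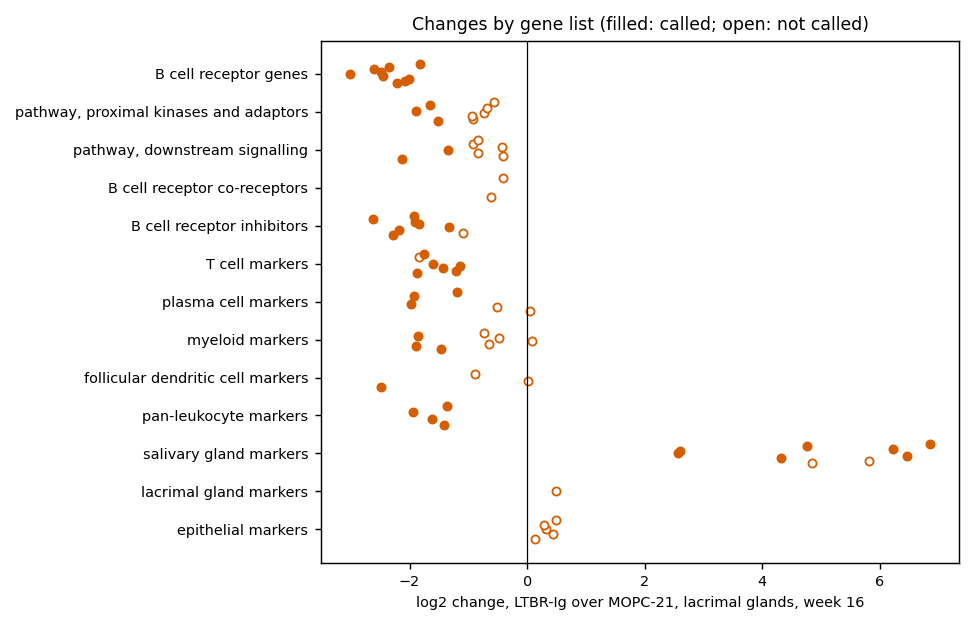
Log2 change of LTBR-Ig over MOPC-21 in lacrimal glands at week 16 (horizontal axis) for each gene tested, by gene list (vertical axis), with filled points for genes called and open points for genes not called. The list labelled as inhibitors also holds the Fc receptor-like genes Fcrl1 and Fcrla. The 9 B cell receptor genes lie between −1.82 and −3.02, the pan-leukocyte markers between −1.36 and −1.93, and the salivary gland markers between 2.57 and 6.86.

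After the shorter treatment no difference was called. At week 12 Cd79a stood at 8.51, 8.63, 7.75 and 7.94 in LTBR-Ig arrays, at 8.12, 8.56, 7.90 and 9.92 in MOPC-21 arrays and at 7.32, 6.33 and 9.80 in untreated arrays, so that the groups overlapped. The changes of the 9 genes against MOPC-21 ran from −1.02 for Cr2 to 0.01 for Btk with a median of −0.51, and 8 were negative. None was called or passed an unadjusted p under 0.05 in limma, and 0.0498% of all probe sets were called in either direction. Against untreated mice at week 12 the changes were −0.16 to 1.02, with 0 genes called, 0 at an unadjusted p under 0.05 in limma, and 0.00498% of probe sets called.

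The difference between the effects at week 16 and week 12 was negative for all 9 genes, from −1.44 for Cr2 to −2.62 for Btk. It was called for none, with adjusted p-values of 0.303 to 0.375 and 0% of probe sets called, while 7 of the 9 passed an unadjusted p under 0.05 in limma. Between week 16 and week 12, LTBR-Ig-treated glands differed by −0.81 to −1.56, with 0 genes called, 3 at an unadjusted p under 0.05 in limma, and 0.00996% of probe sets called. MOPC-21-treated glands differed by 0.35 to 1.06 over the same weeks, with 0 genes called, 0 at an unadjusted p under 0.05 in limma, and 0% of probe sets called.

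LTBR-Ig-treated glands at week 16 still stood above untreated glands at the start of treatment. Against untreated week 8, 6 of the 9 genes were called higher, Cd79b by 4.14, Ms4a1 by 3.91, Bank1 by 3.79, Fcmr by 3.69, Cd79a by 3.64 and Blnk by 3.01, where 6.06% of probe sets were. Blk at 1.40 (adjusted p = 0.0608), Cr2 at 1.07 (adjusted p = 0.173) and Btk at 0.82 (adjusted p = 0.275) were not called. All LTBR-Ig arrays lay above all week 8 arrays for 9 of 9 genes, against 13.4% of probe sets, although for Btk the lowest LTBR-Ig array and the highest week 8 array both came to 2.65. Since 8 of the genes had no signal at week 8, these counts too describe and do not stand as support.

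In salivary glands 8 of the 9 genes had no signal in at least 2 arrays of any group and were not tested there. Cr2, Fcmr, Blk and Btk stayed at or under 2.91 in all 30 salivary arrays. Untreated week 8 replicate 1 stood apart, with Cd79a at 4.83, Cd79b at 4.95, Ms4a1 at 5.32 and Bank1 at 5.02, while the other 3 arrays of that group were at 2.31 to 2.81 for Cd79a and 3.27 to 3.36 for Cd79b.

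Blnk differed from the other 8 in having signal in all salivary groups. At week 16 it stood at 7.54, 7.46, 7.34 and 7.49 in LTBR-Ig arrays, at 7.42, 7.38, 7.62 and 7.70 in MOPC-21 arrays and at 6.94, 7.25, 7.23 and 6.93 in untreated arrays. The change with LTBR-Ig over MOPC-21 was −0.07 (SE 0.16), with 0 genes called, 0 at an unadjusted p under 0.05 in limma, and 0.0357% of 19617 probe sets called in either direction. Untreated salivary glands had Blnk 0.48 higher at week 16 than at week 8 (SE 0.16, adjusted p = 0.0201), less than a fold of 2 and so not called, where 7.14% of probe sets were called in either direction.

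**Figure D5:**
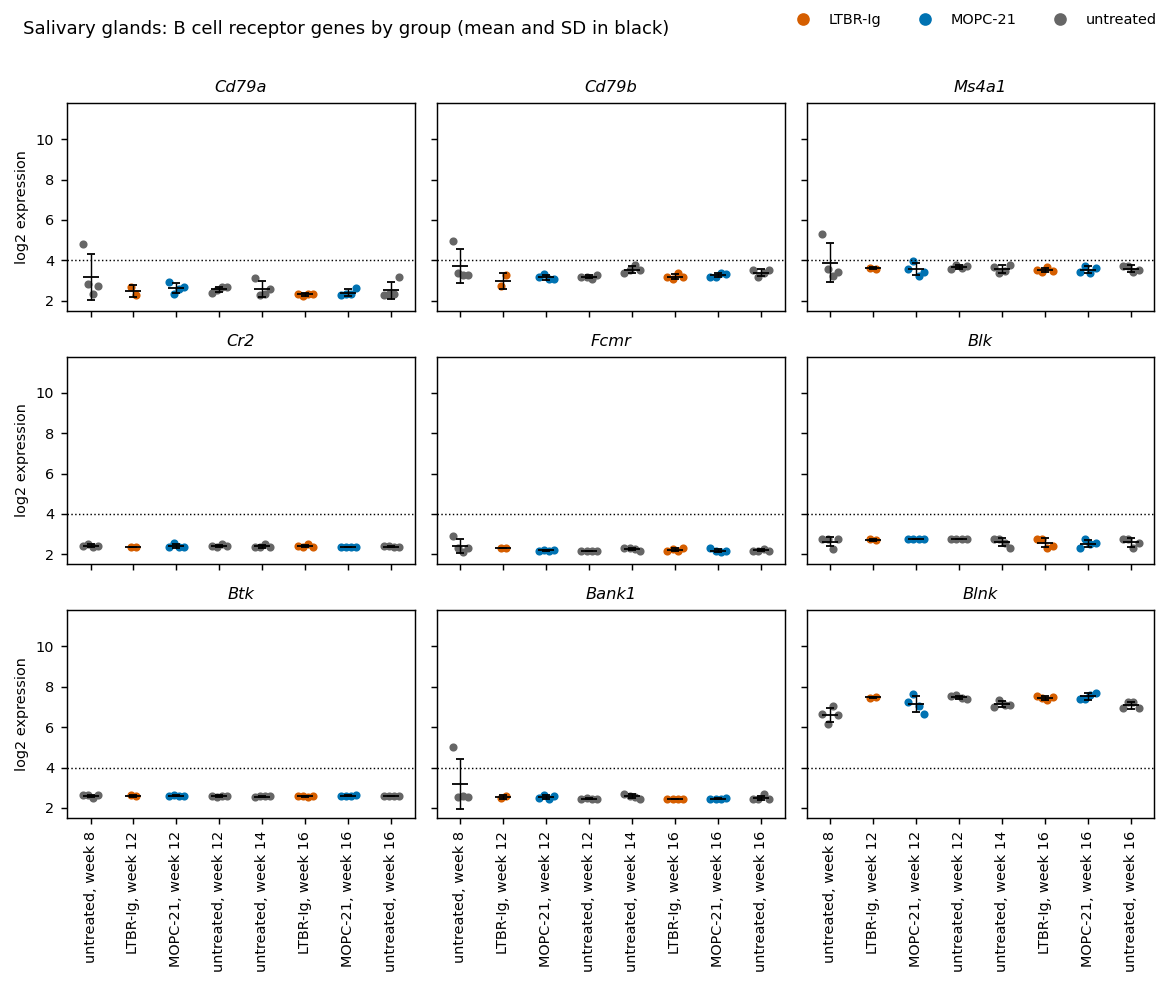
Log2 expression of the 9 genes in salivary glands (vertical axes) for each group (horizontal axes), on the scale used for lacrimal glands, with a point for each array, the mean and SD in black, and a dotted line at 4. Blnk lies above the line in all groups, between 6.14 and 7.70, and the single raised points at week 8 for Cd79a, Cd79b, Ms4a1 and Bank1 belong to untreated replicate 1.

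Set side by side, untreated lacrimal glands had Blnk lower than salivary glands at week 8, at 3.75, 4.29, 3.78 and 5.00 against 6.67, 6.14, 7.04 and 6.58, a difference of −2.40 (adjusted p = 1.9e-07), and 11.6% of 21626 probe sets were called lower. At week 16 all 9 genes were called higher in lacrimal glands, from 1.84 for Blnk to 6.85 for Fcmr, where 11.9% of probe sets were. Through the filter on low values the 8 genes without salivary signal had to be higher there. The effect of LTBR-Ig over MOPC-21 at week 16 was lower in lacrimal than in salivary glands for 6 of 9 genes, where 2.61% of probe sets were called lower, by −3.07 for Fcmr, −2.59 for Btk, −2.52 for Blk, −2.50 for Cr2, −2.34 for Bank1 and −1.75 for Blnk. Blnk is the member of these 6 with signal in both tissues, with an adjusted p of 0.0422. Cd79a, Cd79b and Ms4a1 had differences of −2.00 to −2.11 with adjusted p-values of 0.0522 to 0.0579. None of the 6 calls was kept without the high-Amy1 lacrimal arrays, without LTBR-Ig replicate 3 or without MOPC-21 replicate 3 of the lacrimal glands.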

How the data were processed

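Lacrimal and salivary glands were profiled on Affymetrix mouse genome arrays, and the values used were the log2 expression values that the authors deposited after normalization by GCRMA, which corrects background by probe sequence. They were used as deposited. Such values are compressed near background, so that folds of genes without signal are understated. Of 45101 probe sets, 34958 carried 1 gene symbol in the platform annotation, 932 several and 9211 none, and genes were named from the first kind. No pair of arrays held identical values.

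The limma package (3.58.1, in R 4.3.3) fitted group means to each tissue with an intensity trend, and both tissues together where they were compared. A probe set was tested where any group had 2 or more arrays above 4, and calls needed a fold of 2 and a Benjamini-Hochberg adjusted p under 0.05. The probe set with the highest mean stood for a gene. The text names all 9 genes, up to 4 called genes with the largest change from each list, the 10 genes most alike, and Amy1 and Bpifa2; other list members are named where a count needs them. The 9 genes, the lists and the arrays with high Amy1 were chosen with earlier results of these data known. The fit was tested on simulated data. Alternatives were the filter, the trend, quantile normalization, a replicate block, the arrays in the fit, the posterior probability named in the methods, and each array left out. Per the methods, both lacrimal glands of a mouse were pooled and each lacrimal array was a separate mouse; for salivary glands they name replicate samples only, so that p-values there measure the spread between arrays, which may be technical. The number of arrays, at most 4 per group, limits the precision.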

Additional observations from a re-analysis of the deposited data

Results flagged for a closer look

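Single arrays stood far from the rest of their group of 4 for 8 of the 76 sets examined, a set being the arrays of 1 group for 1 probe set. A set was examined where its highest array exceeded 4. For the week 8 sets below, the outlying array was the only one above 4, so that it admitted its own set. The sets also share arrays over genes that went together, so that the count describes and is not set against chance. In untreated lacrimal glands at week 8, replicate 4 was above the others for Cd79a (4.38), Cd79b (4.48) and Ms4a1 (4.65). In untreated salivary glands at week 8, replicate 1 was above the others for Cd79b (4.95), Bank1 (5.02) and the other probe set of Ms4a1 (4.65, with the rest at 1.94 to 1.96). In MOPC-21-treated lacrimal glands at week 12, Cr2 was high in replicate 4 (6.76, with the rest at 5.22 to 5.38) and Blk low in replicate 3 (4.34, with the rest at 6.13 to 6.40). The effect of LTBR-Ig over MOPC-21 at week 16 differed between lacrimal and salivary glands, by a test of the difference in limma, for Fcmr (−3.07), Btk (−2.59), Blk (−2.52), Cr2 (−2.50), Bank1 (−2.34) and Blnk (−1.75), and of these only Blnk had signal in salivary glands. The other 5 entered the test through lacrimal groups alone, so that for them the difference restates the lacrimal change. None of the 6 calls remained without the high-Amy1 lacrimal arrays, without LTBR-Ig replicate 3 or without MOPC-21 replicate 3 of the lacrimal glands.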

How the results depend on the processing

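No filter on low values, a floor of 6, no intensity trend and quantile normalization kept each count of called genes within 1.5 times its value. Log2 changes of single genes were followed through these settings in the comparisons of LTBR-Ig over MOPC-21 at week 16 and untreated week 16 over week 8. There each kept its direction, as did the other probe set of Ms4a1, for which no counts were made. For LTBR-Ig over MOPC-21 at week 16, 0 genes in place of 9 were called with the arrays of those groups alone (193 of 20077 probe sets called in place of 1180) and 0 with the posterior probability (45 probe sets). For LTBR-Ig over untreated at week 16 the posterior probability called 0 in place of 9. For the effect in lacrimal minus salivary glands, 1 gene in place of 6 was called with the arrays of those groups alone and 0 with the posterior probability. Leaving out the arrays with Amy1 above 8, a setting chosen after earlier results of these data were known, called 0 genes in each of these 3 comparisons. In that setting 22 of 20077 probe sets were called for LTBR-Ig over MOPC-21 at week 16 and 0 for LTBR-Ig over untreated. With each array left out in turn, the calls ran from 0 to 9 for LTBR-Ig over MOPC-21 and over untreated at week 16, from 0 to 9 for the effect in lacrimal minus salivary glands, and from 0 to 6 for untreated week 14 over week 12. The cause was not tested, and no share of all probe sets called is set beside these ranges. Replicate numbers were not used as pairs in the main fit. The deviations of LTBR-Ig and MOPC-21 arrays of the same number correlated at −0.50 to 0.19 at week 16 and at −0.26 to 0.50 at week 12. Those of untreated lacrimal and salivary arrays correlated at −0.24 to 0.11 at week 16 and at −0.15 to 0.10 at week 8. In 0 of 6 pairs of groups examined did all same-numbered arrays exceed 0.1. Such values cannot decide whether lacrimal and salivary arrays of the same number came from the same mouse. With a replicate block, LTBR-Ig over MOPC-21 at week 16 called 9 genes, and the effect in lacrimal minus salivary glands 8. The signal over background limited Cr2 and Btk, whose LTBR-Ig means at week 16, 3.57 and 3.45, lay near the medians of whole arrays, 3.19 to 3.33.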
